A study of Caenorhabditis elegans with 6 samples.

Results

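The genes described here are 50 Caenorhabditis elegans genes for axon guidance cues, their receptors and cell adhesion proteins, out of 21882 genes in the table. They were chosen by name, with earlier results of these data known, and each name matched 1 row. The cells are coelomocytes, the scavenger cells of the worm body cavity, sorted for GFP after L3 larvae were broken into single cells. Poly(A) RNA of the sorted cells was sequenced. The Repro_CC group (3 libraries) came from strain BAT2088, which carries the transgene barIs115. In that transgene the unc-122 promoter, active in coelomocytes, drives a FLAG-tagged che-1 followed by the 3' UTR of unc-54, and a myo-2 promoter drives mCherry in the pharynx. The WT_CC group (3 libraries) came from strain BAT2087, which lacks barIs115. Both strains carry the reporter barIs177 (GFP under the unc-122 promoter) and the temperature-sensitive allele glp-4(bn2). Both were raised at the restrictive temperature, which leaves them without a fully developed germline. WT_CC is therefore a control strain and not the unmodified wild type, and an effect of CHE-1 cannot be told apart from one of the rest of barIs115. CHE-1 is the zinc finger factor that specifies the ASE taste neurons, and the comparison asks how the RNA of these scavenger cells differs when they express it.

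Axon guidance works through secreted or membrane-bound cues that a growing axon reads with surface receptors. In C. elegans the netrin UNC-6 is read by UNC-40 and UNC-5, the Slit protein SLT-1 by SAX-3, ephrins by VAB-1, and semaphorins by plexins. Immunoglobulin proteins, cadherins and the pair neurexin and neuroligin hold cells and synapses together. Many of these proteins also act outside the nervous system, in muscle, skin and migrating cells.

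Levels are given as CPM, the count relative to a library size scaled by TMM, and as TPM where genes are compared with each other, since TPM divides the count by exon length. Changes are log2 fold changes of Repro_CC over WT_CC with a standard error (SE), and a gene was called at an adjusted p under 0.05 in edgeR's quasi-likelihood test over all genes. Library totals ran from 21353072 to 57860556 counts in Repro_CC and from 23062805 to 58325279 in WT_CC. The shallowest library of each group, Repro_CC library 1 and WT_CC library 2, held a count for 35 and 32 of the 50 genes, against 42 to 48 in the other libraries. Of the 50 genes, 2 had no count in any library, 3 more were too low to test and 45 were tested. Among the tested genes 26 reached the count filter in every library, and 0 reached it in 1 group alone. In all, 22 genes had counts in some libraries and 0 in at least 1 other. Coelomocyte markers were present in every library but lower with the transgene: the 7 listed genes summed to 4309 to 6234 CPM in Repro_CC and 15923 to 21348 CPM in WT_CC.

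Most of the receptor genes rose, and wrk-1, the most abundant of the 50 transcripts in the control cells, fell by far the most. Of the 45 tested genes, 7 were called higher in Repro_CC, where 3.37% of all 9112 tested genes were, and 2 were called lower, where 1.69% of all tested genes were. The 7 that rose encode receptors and receptor-like surface proteins: unc-40, sax-3, vab-1, ptp-3, clr-1, cam-1 and casy-1. The 2 that fell were the immunoglobulin gene wrk-1 and the Slit gene slt-1. The groups did not overlap for 17 tested genes that were higher in Repro_CC, against 13% of all tested genes, and for 4 that were lower, against 10.3%. The median log2 fold change was 1.02 over the 45 genes and 0.04 over all tested genes. DESeq2 called 11 of the genes higher and 3 lower, where it called 7.26% and 4.36% of the 9504 genes to which it gave an adjusted p (11.6% in either direction). With limma-voom 10 were higher and 2 lower, where 5.06% and 2.93% of all tested genes were. With edgeR's adjusted deviances 13 were higher and 3 lower, where 7.63% and 3.88% of all tested genes were. In bulk RNA, fewer cells of a type and less RNA per cell cannot be told apart.

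**Figure D1:**
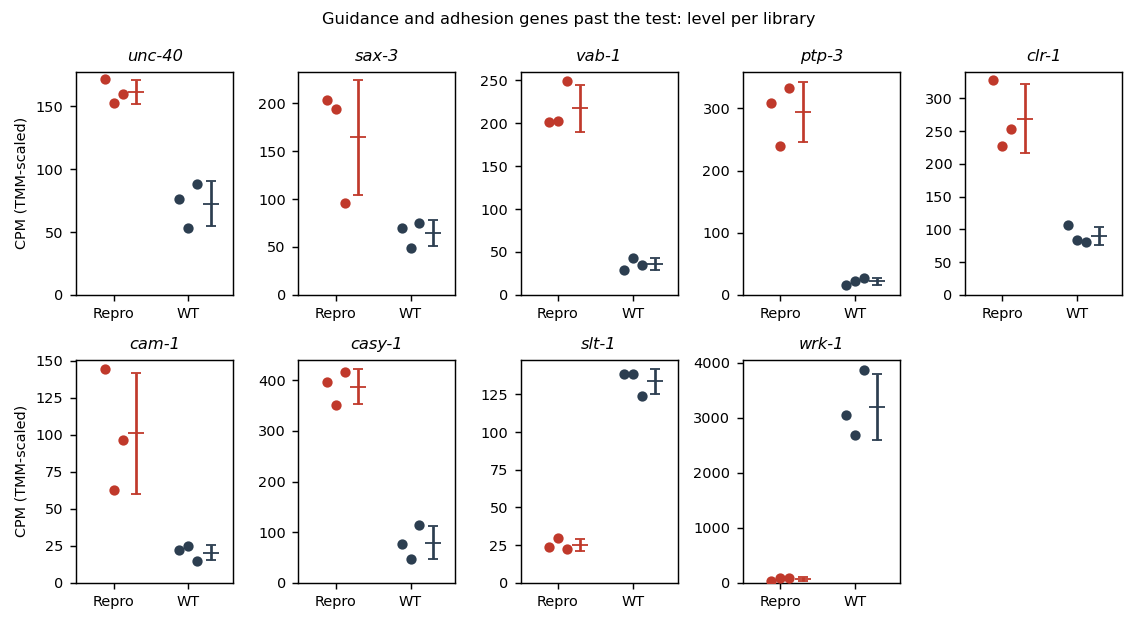
Level in CPM (y axis, linear from 0) of the 9 called genes in each of 3 Repro_CC and 3 WT_CC libraries (x axis); points are libraries, the horizontal mark and bar are the mean and SD. In each of the 9 panels the groups do not overlap, with slt-1 and wrk-1 lower in Repro_CC.

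Markers of other cell types were read in the same libraries. The 9 neuron markers, which include synaptic and dense core vesicle genes, summed to 4949 to 5932 CPM in Repro_CC and 488 to 649 CPM in WT_CC, with 6 called higher and 1 lower. The 8 body wall muscle markers summed to 16825 to 24534 CPM in Repro_CC and 36177 to 38002 CPM in WT_CC, and most of that is the myosin gene unc-54, which was called lower (log2 fold change -0.85, adjusted p = 0.0111). The 3' UTR of unc-54 is also part of barIs115, so its reads in Repro_CC can include the transgene. The sums of the other 7 muscle markers went the opposite way, at 1631 to 2520 CPM in Repro_CC and 894 to 1267 CPM in WT_CC. Of the 6 tested, 1 was called higher, lev-11, which averaged 815 CPM in Repro_CC and 253 CPM in WT_CC. Not all 7 rose: unc-27 had a log2 fold change of -0.03, and the untested hlh-1 averaged 0.65 CPM in Repro_CC and 0.66 CPM in WT_CC. For 8 hypodermis markers the sums were 130.5 to 217 CPM in Repro_CC and 183 to 246 CPM in WT_CC, and bli-1 was at 0 throughout. The 7 intestine markers summed to 212 to 877 CPM in Repro_CC and 221 to 303 CPM in WT_CC, and the 6 pharynx markers to 62.6 to 101 CPM in Repro_CC and 51.3 to 499 CPM in WT_CC. Glia markers summed to at most 18.4 CPM in Repro_CC and 12.7 CPM in WT_CC, with hlh-17 and delm-1 at 0 in every library. The 5 germline markers summed to 47.5 to 145 CPM in Repro_CC and 97.4 to 163 CPM in WT_CC. In none of the hypodermis, intestine, pharynx, glia and germline lists was a gene called in edgeR. Of the neuron markers, 7 had a positive log2 fold change and 2 a negative one, rgef-1 (-1.42, adjusted p = 0.00677) and unc-119 (-0.63, adjusted p = 0.292). Of the 7 tested muscle markers, 5 were positive and 2 negative. All 7 coelomocyte markers were negative, like wrk-1 and slt-1, and 4 were called lower. Among those not called, unc-122 overlapped between the groups (-0.29, adjusted p = 0.741). The part of these cell types in the changes was not tested.

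The largest change belonged to wrk-1, which encodes an immunoglobulin protein on a lipid anchor that acts with ephrin signalling at the ventral midline. The gene (WBGene00006942, chromosome X, 8387442 to 8392589, WBcel235) had 814, 5257 and 4953 counts in Repro_CC, against 155285, 64317 and 207449 in WT_CC. In CPM these are 36.9, 83.5 and 94.5 in Repro_CC and 3049, 2698 and 3865 in WT_CC. Every Repro_CC library lies far below every WT_CC library, and the lowest one is Repro_CC library 1. The log2 fold change was -5.48 (SE 0.39, adjusted p = 5.18e-05), which is 44.7-fold lower. In WT_CC, wrk-1 held 65.1% to 73.9% of the counts of all 50 genes and ranked between 88 and 111 of all genes by TPM. In Repro_CC it held 1.05% to 2.84% of those counts and ranked between 1693 and 3378. Without wrk-1, the other 49 genes summed to 3483, 3146 and 3229 CPM in Repro_CC, against 1563, 1448 and 1368 CPM in WT_CC.

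The other gene that fell was slt-1 (WBGene00004854, chromosome X, 14674328 to 14683324), which encodes the secreted Slit cue. It was at 24.0, 29.5 and 22.2 CPM in Repro_CC and 138, 138 and 124 CPM in WT_CC, tight within each group. The log2 fold change was -2.40 (SE 0.29, adjusted p = 0.000481). Its receptor gene sax-3 (WBGene00004729, chromosome X, 3451908 to 3465927), the Robo homologue, went the other way: 203, 194 and 95.6 CPM in Repro_CC and 69.6, 49.2 and 74.8 CPM in WT_CC. Repro_CC library 3 is the low one of its group and still lies above every WT_CC library. The change of sax-3 was 1.35 on the log2 scale (SE 0.34, adjusted p = 0.0456). Per length, sax-3 was at 51.5 ± 18.8 TPM and slt-1 at 7.80 ± 1.58 TPM in Repro_CC (SD, n = 3). In WT_CC sax-3 was at 17.5 ± 2.26 TPM and slt-1 at 36 ± 5.18 TPM (SD, n = 3), so receptor and cue stood in opposite order in the 2 groups. The call of sax-3 is less firm than that of slt-1: it was lost when any library other than Repro_CC library 3 was left out (adjusted p between 0.0691 and 0.155), with upper-quartile scaling (0.0727) and when both shallow libraries were dropped (0.297).

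Among the netrin genes, the receptor gene unc-40 rose (WBGene00006776, chromosome I, 5679837 to 5691503). UNC-40, the DCC homologue, mediates attraction to netrin. It was at 172, 152 and 159.8 CPM in Repro_CC and 76.3, 53 and 88.2 CPM in WT_CC, with no overlap. The change was 1.15 on the log2 scale (SE 0.28, adjusted p = 0.0355). This call was lost when any single library was left out, with adjusted p between 0.0587 and 0.119, with upper-quartile scaling (0.0639) and when both shallow libraries were dropped (0.158). The other netrin receptor gene, unc-5, which mediates repulsion, had 82.9, 33.9 and 21.6 CPM in Repro_CC and 16.3, 20.4 and 10.5 CPM in WT_CC. The lowest Repro_CC library lies just above the highest WT_CC library, and the change did not pass (log2 fold change 1.55, SE 0.59, adjusted p = 0.226).

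The netrin gene unc-6 itself was low in both groups, at 0, 6.18 and 4.37 CPM in Repro_CC and 7.99, 20.3 and 3.63 CPM in WT_CC (adjusted p = 0.998). The gene madd-4 encodes a secreted cue that guides muscle arms and axons through UNC-40. It was at 113, 75.8 and 95.8 CPM in Repro_CC and 5.03, 0 and 3.6 CPM in WT_CC. All 3 Repro_CC libraries lie more than 10 times above the highest WT_CC library, and WT_CC library 2 had no count. The log2 fold change of 5.03 (SE 1.44) did not pass (adjusted p = 0.151), but it passed without WT_CC library 2 (0.000204) and in DESeq2 (0.000159). In all, madd-4 was called in 4 of 13 alternative fits, and not in limma-voom (0.0581). The TGF-beta family cue gene unc-129, which acts with UNC-5, reached 2.63, 16.3 and 4.81 CPM in Repro_CC and 0.0196, 0 and 1.84 CPM in WT_CC (adjusted p = 0.814).

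The Eph receptor gene vab-1 (WBGene00006868, chromosome II, 4572000 to 4590970) rose, and none of the genes of its ephrin ligands passed the test in edgeR or DESeq2 with all libraries. VAB-1 is the only Eph receptor of the worm and acts in the closing of the embryonic skin. It was at 201, 202 and 249 CPM in Repro_CC and 29.3, 43.4 and 35.3 CPM in WT_CC. The groups are far apart with little spread inside either, and the log2 fold change was 2.60 (SE 0.28, adjusted p = 0.000182). Of the ephrin genes, vab-2 was at 0, 9.72 and 0 CPM in Repro_CC and 17.5, 22 and 13.9 CPM in WT_CC. Per length vab-2 was at 4.46 ± 7.73 TPM in Repro_CC and 20.5 ± 6.79 TPM in WT_CC (SD, n = 3 each), where it ranked above vab-1, at 11.5 ± 3.56 TPM. Its change did not pass (log2 fold change -2.45, SE 2.20, adjusted p = 0.901), and it was called lower without Repro_CC library 2 (0.0274), the sole Repro_CC library with counts. The ephrin gene efn-2 had 97, 558 and 205 counts in Repro_CC and 0, 0 and 98 in WT_CC (adjusted p = 0.924). For efn-4 a single library of each group had counts, and efn-3 had none at all.

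Semaphorin and plexin genes gave no call. Of the 5, 0 passed edgeR or DESeq2 and 0 had an unadjusted p under 0.05 in edgeR. The secreted semaphorin gene mab-20 was at 65.8, 60.5 and 54.7 CPM in Repro_CC and 47.3, 76.7 and 40.6 CPM in WT_CC, with overlapping groups (log2 fold change 0.14, SE 0.35). The plexin gene plx-1 was at 125, 109.5 and 63.8 CPM in Repro_CC and 52.0, 63.4 and 82.9 CPM in WT_CC (log2 fold change 0.59, SE 0.34, adjusted p = 0.564). The second plexin gene plx-2 averaged 18.8 ± 14.2 CPM in Repro_CC and 16.1 ± 3.68 CPM in WT_CC (SD, n = 3 each). The membrane semaphorin genes smp-1 and smp-2 averaged 1.95 ± 3.38 and 12.4 ± 6.77 CPM in Repro_CC, and 1.61 ± 2.13 and 3.94 ± 1.68 CPM in WT_CC (SD, n = 3 each).

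All 3 receptor enzymes of other guidance pathways rose. The LAR-type receptor tyrosine phosphatase gene ptp-3, which acts in axon guidance and synapse formation (WBGene00004215, chromosome II, 10975539 to 11012247) was at 309, 240.1 and 333 CPM in Repro_CC and 15.1, 21.7 and 27.7 CPM in WT_CC. The groups are far apart, and the level was 13.7-fold higher (log2 3.77, SE 0.31, adjusted p = 3.47e-05). The receptor tyrosine phosphatase CLR-1 opposes FGF receptor signalling. Its gene clr-1 (WBGene00000548, chromosome II, 5466358 to 5473816) was at 328, 227 and 253 CPM in Repro_CC and 106, 83.6 and 80.7 CPM in WT_CC (1.58 on the log2 scale, SE 0.25, adjusted p = 0.00272), with no overlap. The ROR kinase CAM-1 binds Wnt proteins and guides migrating neurons. Its gene cam-1 (WBGene00000289, chromosome II, 9295915 to 9310304) was at 144, 62.6 and 96.5 CPM in Repro_CC and 22, 24.5 and 14.8 CPM in WT_CC, most variable in Repro_CC yet apart from WT_CC (log2 fold change 2.31, SE 0.41, adjusted p = 0.00597).

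Set side by side, the 9 receptors (unc-40, unc-5, sax-3, vab-1, plx-1, plx-2, ptp-3, clr-1 and cam-1) gave 6 calls higher and 0 lower. The 11 cue genes gave 0 higher and 1 lower among 9 tested. Of all tested genes, 3.37% were called higher and 1.69% lower. Among the 6 receptor calls, that of unc-40 held in 5 and that of sax-3 in 6 of the 13 alternative fits. Apart from slt-1 (0.29) and mab-20 (0.35), the SEs of the tested cues ran from 1.44 to 3.41. Those of the receptors ran from 0.25 to 0.89, so the counts of calls are not on an equal footing. Without a call, unc-129, madd-4, efn-2 and smp-2 had separated groups that were higher in Repro_CC, and vab-2 had separated groups that were lower. Over all tested genes, called or not, the groups were separated and higher for 13% and separated and lower for 10.3%. DESeq2 called madd-4 higher. Summed per length, the receptors were at 389 ± 35.2 TPM in Repro_CC and 102 ± 7.93 TPM in WT_CC (SD, n = 3 each). The cues summed to 102 ± 21.8 TPM in Repro_CC and 88.3 ± 22.8 TPM in WT_CC (SD, n = 3 each). Whether receptors and cues differ in their change was not tested.

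**Figure D2:**
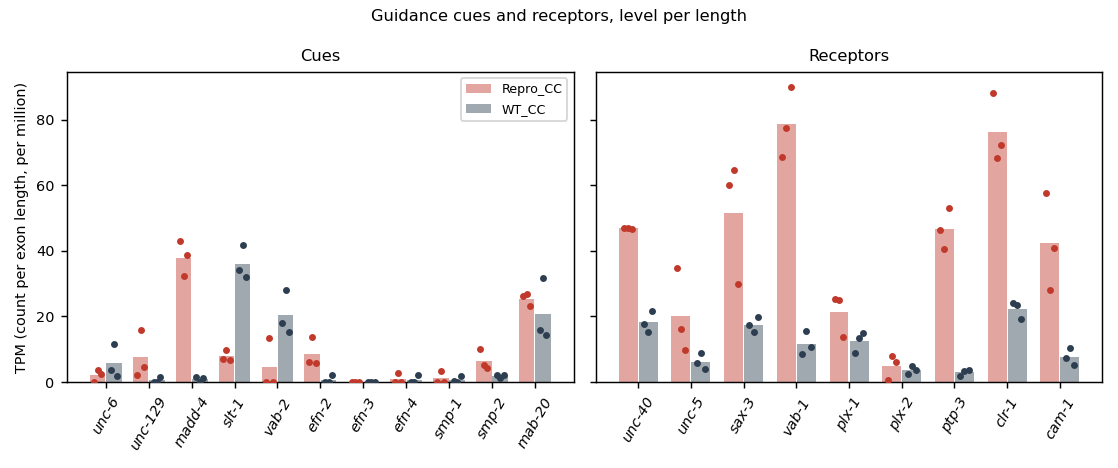
Level per exon length in TPM (y axis, linear from 0) of 11 cue genes and 9 receptor genes (x axis); bars are group means, Repro_CC left of WT_CC, and points are single libraries. Cue levels are mixed, with madd-4 above WT_CC and slt-1 below it, while the Repro_CC bar is the taller one for each of the 9 receptors, 6 of which passed the test.

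Of 11 immunoglobulin adhesion genes other than the zig family, wrk-1 was the only call in edgeR, and 10 did not pass. The most abundant of the rest was sax-7, the L1CAM homologue that holds neurons in place, at 352, 414 and 513 CPM in Repro_CC and 426, 296 and 289 CPM in WT_CC. The groups overlap (0.34 on the log2 scale, SE 0.23, adjusted p = 0.717). The gene rig-3 encodes a neuronal immunoglobulin protein that acts at synapses. It had 88.3, 33.9 and 129.8 CPM in Repro_CC and 5.83, 0 and 3.80 CPM in WT_CC (log2 fold change 4.70, SE 1.55). The groups are apart, WT_CC library 2 again had no count, and the adjusted p was 0.224, or 0.00288 without that library and 0.00165 in DESeq2. Of 13 alternative fits, 4 called rig-3, and limma-voom did not (0.1765).

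The gene rig-1 had 50.5, 84.6 and 40.5 CPM in Repro_CC and 10.2, 37.1 and 10.6 CPM in WT_CC (log2 fold change 1.6, SE 0.58). WT_CC library 2 is the high one of its group here, and the adjusted p was 0.199, or 0.0196 without that library. Of 13 alternative fits, 5 called rig-1, and DESeq2 did not (0.148). In the other direction, rig-4, the sidekick homologue, had 2.95, 17.3 and 10.4 CPM in Repro_CC and 59.0, 80.6 and 27.6 CPM in WT_CC. The groups are apart, but the log2 fold change of -2.44 (SE 0.68) missed the threshold (adjusted p = 0.0723). It passed without Repro_CC library 2 (0.0362), with upper-quartile scaling (0.0489) and in DESeq2 (0.0124). Of 13 alternative fits, 5 called rig-4, and limma-voom did not (0.190). The contactin gene rig-6 was at 55.5, 60.2 and 88.3 CPM in Repro_CC and 15.8, 59.9 and 10.3 CPM in WT_CC, and did not pass (adjusted p = 0.427). It passed without WT_CC library 2 (0.0130), in limma-voom (0.00524) and with adjusted deviances (0.0120). Of 13 alternative fits, 4 called rig-6, and DESeq2 did not (0.3645).

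The remaining immunoglobulin genes were scarce. The synapse specificity pair syg-1 and syg-2 averaged 18.1 ± 9.31 and 5.82 ± 5.06 CPM in Repro_CC, and 2.49 ± 2.22 and 6.4 ± 4.04 CPM in WT_CC (SD, n = 3 each). The semaphorin co-receptor gene lad-2 averaged 15.9 ± 6.89 CPM in Repro_CC and 5.96 ± 3.55 CPM in WT_CC (SD, n = 3 each). The NCAM homologue ncam-1 was even in Repro_CC, at 5.98, 7.21 and 6.62 CPM, and scattered in WT_CC, at 23.6, 0 and 8.16 CPM. The gene rig-5 did not exceed 2.88 CPM in any Repro_CC library or 0.578 CPM in any WT_CC library.

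The 8 zig genes encode small proteins with a pair of immunoglobulin domains, some of which keep axons in position after development. None was called in edgeR, which tested 5, or in DESeq2, and 0 of the 5 had an unadjusted p under 0.05. The most abundant was zig-1, at 36.6, 26.3 and 11 CPM in Repro_CC and 24.1, 6.63 and 9.60 CPM in WT_CC, with overlapping groups. Summed over all 8, the level was 43.2 ± 11.5 CPM in Repro_CC and 30.5 ± 8.66 CPM in WT_CC (SD, n = 3 each). The gene zig-3 had no count, and zig-2 had 27 counts in WT_CC library 3 and none elsewhere.

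One cadherin superfamily gene rose, casy-1 (WBGene00000403, chromosome II, 5945405 to 5956683), which encodes calsyntenin, a neuronal membrane protein needed for learning in the worm. It was at 396, 350.4 and 416 CPM in Repro_CC and 77.5, 47.1 and 113 CPM in WT_CC, with no overlap (log2 fold change 2.29, SE 0.31, adjusted p = 0.000993). Per length it was the highest of the 50 genes in Repro_CC, at 150.1 ± 9.99 TPM, and the fourth in WT_CC, at 26.3 ± 9.70 TPM (SD, n = 3 each). The classical cadherin gene hmr-1, a core part of cell junctions, was at 210.5, 228 and 149 CPM in Repro_CC and 134, 169 and 168 CPM in WT_CC. The groups overlap, and the log2 fold change of 0.32 (SE 0.24) did not pass (adjusted p = 0.808).

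The Fat-like cadherin gene cdh-4 had 132, 94.7 and 70.6 CPM in Repro_CC and 91.6, 22.3 and 26.3 CPM in WT_CC. WT_CC library 1 is the high one of its group, and the adjusted p was 0.442 with all libraries and 0.0102 without that one. The flamingo gene fmi-1 was at 13.1, 16.5 and 8.93 CPM in Repro_CC and 2.22, 0.545 and 3.11 CPM in WT_CC, apart but not past (log2 fold change 2.71, SE 1.72, adjusted p = 0.662). The cadherin genes cdh-1, cdh-3 and cdh-12 averaged at most 13.6 CPM in Repro_CC and 6.71 CPM in WT_CC, with overlapping groups for all 3. For cdh-3 the values were 0.362, 2.89 and 0.324 CPM in Repro_CC and 4.61, 6.96 and 2.53 CPM in WT_CC.

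Neurexin and neuroligin bind each other across synapses. The neurexin gene nrx-1 (WBGene00007799, chromosome V, 10825011 to 10846703) had 5446, 12463 and 9759 counts in Repro_CC, against 704, 0 and 249 in WT_CC. In CPM these are 247, 198 and 186 in Repro_CC and 13.8, 0 and 4.64 in WT_CC. Every Repro_CC library is more than 10 times above the highest WT_CC library, but the log2 fold change of 5.08 (SE 1.63) did not pass in edgeR (adjusted p = 0.227). It passed in DESeq2 (adjusted p = 0.0410), in limma-voom (0.0305) and in edgeR without WT_CC library 2 (0.000359). In all, 5 of 13 alternative fits called nrx-1, and edgeR without a count filter did not (0.450). The neuroligin gene nlg-1 had 28.1, 39.0 and 9.92 CPM in Repro_CC and 2.69, 30.5 and 6.37 CPM in WT_CC, with overlapping groups (adjusted p = 0.925).

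The dendrite branching receptor gene dma-1 and the gene of its skin-derived ligand component, mnr-1, were both scarce. They averaged 2.40 ± 2.48 and 7.81 ± 8.11 CPM in Repro_CC, and 5.23 ± 6.35 and 4.36 ± 5.43 CPM in WT_CC (SD, n = 3 each). Of the 50 genes, 29 were not called and stayed under 50 CPM in both group means. None of the 29 combined separated groups with an unadjusted p under 0.05. They include dma-1, mnr-1 and other scarce genes described above. Of these, 24 were tested, and the smallest adjusted p was 0.634. The groups did not overlap for 5 that were higher in Repro_CC, against 13% of all tested genes, and 1 that was lower, against 10.3%. The SEs of the 24 ran from 0.78 to 3.55 on the log2 scale, and 16 of them had a library at 0. With SEs of that size, changes of several fold can miss the threshold.

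**Figure D3:**
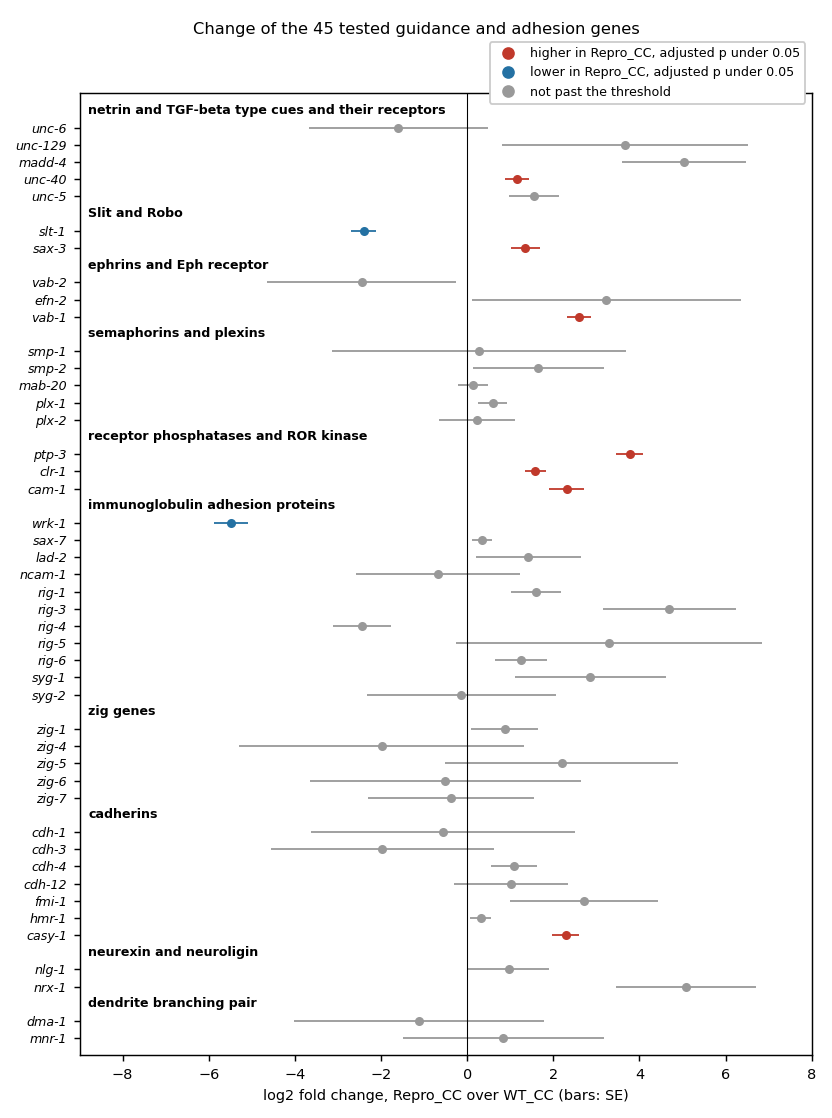
Log2 fold change of Repro_CC over WT_CC (x axis) with SE bars for the 45 tested genes, grouped by family (y axis); red and blue mark genes called higher and lower, grey those not past the threshold. Called genes such as ptp-3 at 3.77 and wrk-1 at -5.48 have narrow bars, while madd-4, rig-3 and nrx-1 lie near 5 with wide bars.

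Ordered by level per length, the leading genes of Repro_CC were casy-1, sax-7, vab-1 and clr-1, at 150.1 ± 9.99, 96.9 ± 20.7, 78.6 ± 10.8 and 76.2 ± 10.4 TPM (SD, n = 3). Of these neighbours, sax-7, vab-1 and clr-1 lie within each other's spread. In WT_CC the order was wrk-1, sax-7, slt-1 and casy-1, at 2068 ± 314, 66.0 ± 11, 36 ± 5.18 and 26.3 ± 9.70 TPM (SD, n = 3). There wrk-1 and sax-7 stand apart from the rest, while slt-1 and casy-1 lie within each other's spread.

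Related genes outside the 50 were read from 4 further lists of guidance effectors, other cues and receptors, junction proteins, and other immunoglobulin and cadherin genes. These lists were chosen with earlier results of these data known, so the shares of their genes called are a description and no independent support. Of their 68 tested genes, 6 were higher (8.82%, against 3.37% of all tested genes) and 3 lower (4.41%, against 1.69%), and 26 did not overlap between the groups, where 23.4% of all tested genes did not. Both the 6 and the 26 include oig-1, which passed the count filter through Repro_CC alone and could only be called higher. Several of the called genes are known partners of the receptors above. The gene eva-1 encodes a co-receptor for SLT-1 and MADD-4, and was at 67.6, 91.3 and 73.5 CPM in Repro_CC and 3.81, 6.46 and 1.66 CPM in WT_CC (4.29 on the log2 scale, SE 0.57, adjusted p = 0.000845). The effector gene max-1, which acts in UNC-5 repulsion, was at 76.5, 85.6 and 99.7 CPM in Repro_CC and 5.12, 19.1 and 7.64 CPM in WT_CC (3.04, SE 0.52, adjusted p = 0.00522). Both sets of groups are far apart.

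The syndecan gene sdn-1, a heparan sulfate proteoglycan of neurons and skin, averaged 106.6 ± 10.5 CPM in Repro_CC and 20.4 ± 9.56 CPM in WT_CC (log2 fold change 2.39, adjusted p = 0.00640). The axon outgrowth gene unc-76 averaged 327 ± 51.8 CPM in Repro_CC and 70.7 ± 13.8 CPM in WT_CC (2.21, adjusted p = 0.000301). The afadin gene afd-1, an adaptor of cell junctions, averaged 328 ± 74.9 CPM in Repro_CC and 127.5 ± 42.3 CPM in WT_CC (1.36, adjusted p = 0.0203; 0.0518 without WT_CC library 2 and 0.0982 without both shallow libraries). The gene oig-1 encodes a secreted protein with 1 immunoglobulin domain that acts in motor neuron synapses. It passed the count filter through Repro_CC alone, so it could only be called higher. It had 1263, 4027 and 4444 counts in Repro_CC and a single count in WT_CC, a ratio of 11054 with an exact 95% counting interval of 1984 to 436603.

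Among the genes that fell, crml-1, which encodes the actin regulator CARMIL, was at 120.2, 93.3 and 88.3 CPM in Repro_CC and 374, 399.9 and 315 CPM in WT_CC (-1.85 on the log2 scale, SE 0.23, adjusted p = 0.000541). The FGF receptor gene egl-15, whose signal CLR-1 opposes, was at 0.498, 7.85 and 7.86 CPM in Repro_CC and 74.3, 71.4 and 59.5 CPM in WT_CC (-3.66, SE 0.85, adjusted p = 0.0404). It did not pass without Repro_CC library 2 (adjusted p = 0.143) or 3 (0.167) and without WT_CC library 1 (0.0557), 2 (0.0796) or 3 (0.0721), nor in limma-voom (0.0960). The gene dig-1 encodes a giant extracellular immunoglobulin protein that keeps neurons in place. It was at 13487, 7142 and 8993 CPM in Repro_CC and 54895, 31112 and 24904 CPM in WT_CC (-1.90, SE 0.36, adjusted p = 0.0254). That call was lost without Repro_CC library 1 (0.0696), 2 (0.0977) or 3 (0.223) without WT_CC library 2 (0.0610) and with adjusted deviances (0.0534).

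**Figure D4:**
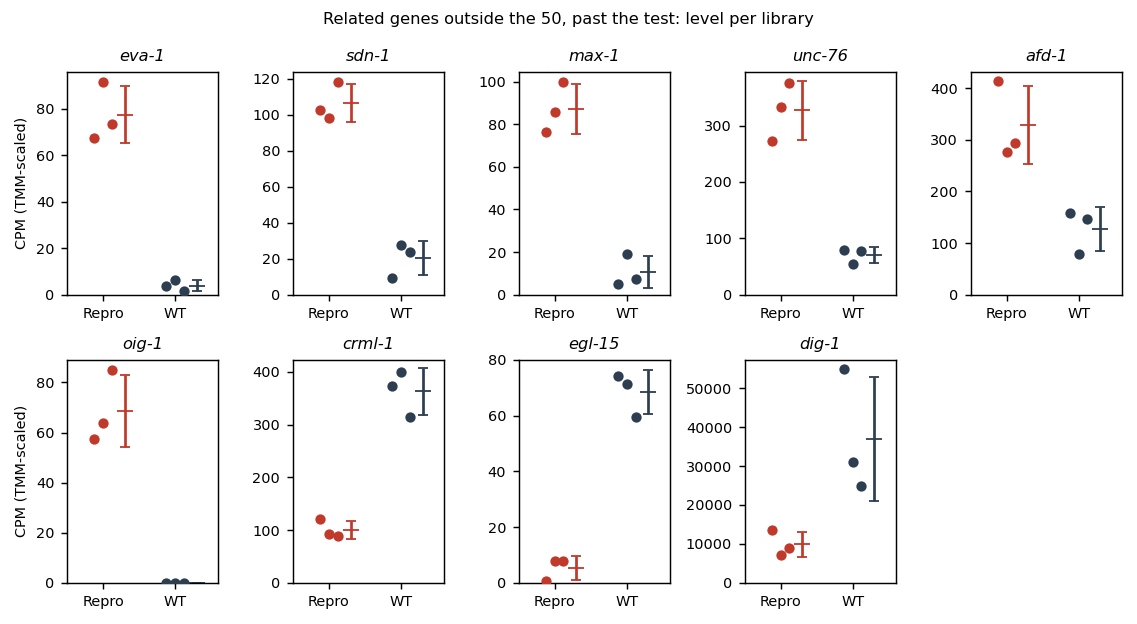
Level in CPM (y axis, linear from 0) of the 9 called genes of the 4 further lists in each of 3 Repro_CC and 3 WT_CC libraries (x axis); points are libraries, the horizontal mark and bar are the mean and SD. The groups do not overlap in any panel; crml-1, egl-15 and dig-1 are lower in Repro_CC.

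Of the 9 calls among the 50 genes, 7 held in every alternative run. In all 13 alternative fits wrk-1, slt-1, vab-1, ptp-3, clr-1, cam-1 and casy-1 stayed called in the same direction, whereas unc-40 was called in 5 and sax-3 in 6. Among the genes not past the threshold as reported, nrx-1, rig-1 and rig-4 were called in 5 of the 13, and madd-4, rig-3 and rig-6 in 4. All of these but rig-4 were called without WT_CC library 2.

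**Figure D5:**
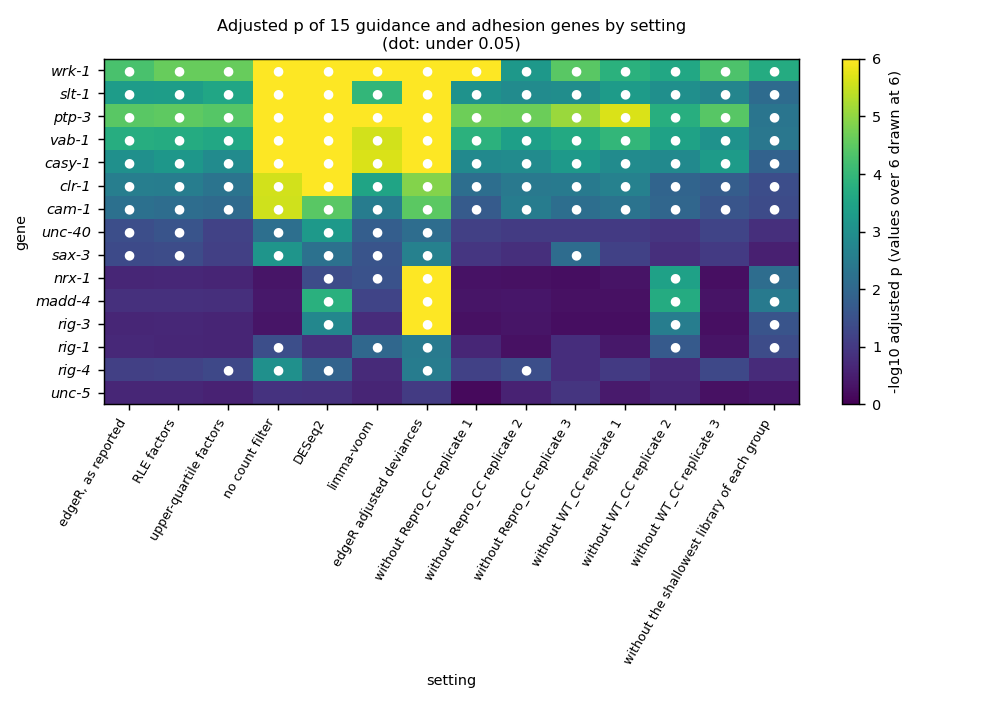
Adjusted p (colour, as -log10) of 15 guidance and adhesion genes (y axis) in the reported edgeR fit and 13 alternatives (x axis); values over 6 are drawn at 6, and a dot marks an adjusted p under 0.05. The upper 7 genes have a dot in every column, while nrx-1, madd-4, rig-3 and rig-1 have one without WT_CC replicate 2 and none as reported.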

How the data were processed

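The authors deposited estimated counts per gene, rounded to whole numbers. Per the submitters' processing notes, the tools were Salmon 0.13.1 and DESeq2 and the genome build was WBcel235, with no role stated. The step from transcripts to genes, and any use of strand in counting, were not described there. The libraries were paired-end and strand-specific, as the design text of the series states. Exons of 12 of the 50 genes overlap an opposite-strand protein-coding gene with counts, over 0.183% to 6.18% of the exon length. The labels name no cultures or sorts, so p-values measure only how far these libraries spread, which may be technical variation. The deposited normalized table was not used.

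From the estimated counts, edgeR 4.0.16 in R 4.3.3 gave quasi-likelihood tests (robust, two-sided, TMM factors, filterByExpr with minimum count 10 and minimum total 15, Benjamini-Hochberg over 9112 genes, threshold 0.05). All adjusted p-values are from it unless another tool is named. The SE is the absolute log2 fold change over the square root of F and is approximate, above all for genes near 0. TPM used union exon lengths from the WBcel235 annotation, which also gave coordinates. Symbols came from a gene name table. DESeq2 1.42.0 and limma-voom (limma 3.58.1), other scalings, no count filter, edgeR with adjusted deviances and fits without libraries were alternatives. The fits were tested on simulated data. Counting intervals cover counting error only, since PCR copies are not independent molecules. Per-library values are given for genes called, with separated groups and an unadjusted p under 0.05, or with a mean of at least 50 CPM in a group, and for their partners; others, and means for scarce genes, were added for completeness. Members and lists were chosen with earlier results of these data known.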

Additional observations from a re-analysis of the deposited data

How the results depend on the processing

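All-gene counts moved by over 1.5 times with the tool. Against 307 higher and 154 lower genes, there were 474 and 255 without a count filter, 690 and 414 in DESeq2, 461 and 267 in limma-voom, and 695 and 354 in edgeR with adjusted deviances. Of the 50 genes, 7 were higher and 2 lower, against 11 higher in DESeq2, 13 higher with adjusted deviances, and 4 lower without Repro_CC library 2, where rig-4 and vab-2 joined. When each library was left out, the 50 genes gave 5 to 10 higher and 2 to 4 lower calls. Over all genes the same fits gave 234 to 347 higher and 113 to 179 lower calls. Both the 10 and the 347 came without WT_CC library 2. In the 4 further lists, 6 were higher and 3 lower, against 11 higher in DESeq2, and 1 lower without Repro_CC library 2 or 3 or WT_CC library 2. Leaving out each library gave 1 to 2 lower calls in those lists. The cause of these shifts was not tested. The sign of mab-20 turned once, without WT_CC library 3; over the 6 fits without 1 library its log2 fold change lay between -0.064 and 0.39. Upper-quartile scaling moved the median log2 fold change of all genes to -0.10, against 0.04. It left 5 of the 50 genes higher and 3 lower, with 277 of all genes higher and 196 lower. The 50 genes' median stayed between 0.82 and 1.19 in all 13 alternatives. No paired analysis was possible because the labels give the libraries no shared replicate numbers. Library numbers run in consecutive couples of 1 Repro_CC and 1 WT_CC library, and the labels do not say whether these were processed together. Of the 50 genes, 18 had no count in WT_CC library 2 and 15 none in Repro_CC library 1, the shallowest of each group, and the part of depth in this was not tested.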

Other observations

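By position, 15 of the 50 genes (30%) lie on the X chromosome, which holds 13.6% of the protein-coding genes in the table; this is a description of the list and bears on no comparison. Of the 50 genes, 3 pairs lie within 50 kb of each other, and whether neighbours change together was not tested. For zig-4 and zig-3, 4.15 kb apart on the X chromosome, no comparison can be made since zig-3 had no count. The genes rig-3 and unc-6, 28.8 kb apart on the X chromosome, had log2 fold changes of 4.70 and -1.60, neither past the threshold. The genes syg-2 and slt-1, 11.5 kb apart on the same chromosome, had log2 fold changes of -0.14 (SE 2.19) and -2.40 (SE 0.29), of which that of slt-1 passed.

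The absence of counts clusters in the shallow libraries: 11 of the 50 genes had no count in WT_CC library 2 but counts in both other WT_CC libraries, and 7 had none in Repro_CC library 1 but counts in both other Repro_CC libraries. Depth and library cannot be told apart here.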
